A study of Mus musculus with 6 samples.

Results

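This report describes 10 mouse genes whose microarray signal lay several-fold apart between 6 brain samples: Efhd2, Tmem87a, Pam, Pttg1, Gdpd3, Mid1, Ap4m1, Khsrp, Cap1 and Cd33. They were chosen by the measured signals themselves, as genes that read far apart between arrays in patterns that cross genotype, and the choice set no fold threshold. Their levels are therefore given as a description with no test. All 18 probe sets that the platform annotation assigns to these genes were taken, out of 34958 probe sets that name 1 gene, for 18194 genes. A probe set is a group of short probes that reads 1 part of a transcript. A gene with several probe sets can be read at several places. All 10 genes kept a probe set with a mean signal of at least 89.0, which 11499 genes did.

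Each array measured total RNA from a frontal cortical lobe of 1 mouse aged 21 days, on a mixed C57BL/6 and 129 background. Wild type (WT), Vldlr knockout, Apoer2 knockout and the knockout of both receptors came from a cross of double heterozygotes. The Dab1 knockout and the Reln knockout were bred from other matings, and no wild type of those matings was analysed here. No animal was treated. Each genotype had 1 array and no replicate, and this number limits how precise any value can be. The deleted part of each gene is not given in the sources used here.

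Reelin is a secreted protein that places neurons in the developing cortex and cerebellum. It binds the receptors Vldlr and Apoer2 (gene symbol Lrp8), and the adaptor Dab1 carries the signal inside the cell. None of the 10 genes is a core part of that pathway. They fall into several roles: membrane traffic and secretion (Tmem87a, Ap4m1, Pam), the cytoskeleton (Efhd2, Cap1, Mid1), cell division and RNA turnover (Pttg1, Khsrp), and lipid metabolism and immune recognition (Gdpd3, Cd33). Inbred strains differ in sequence, and a sequence difference can alter either the amount of a transcript or how well a probe binds it. The probe sequences and the animals' genotypes at these genes were not analysed here, so the part of a strain variant in any value below was not tested.

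The brightest Reln probe set read 79.9 on the Reln knockout array and 1498.3 to 1880.0 elsewhere, and that of Lrp8 read 4.2 and 13.7 on the arrays lacking Apoer2 and 342.4 to 379.8 elsewhere. Vldlr read 187.3 and 185.6 on the arrays lacking it and 357.6 to 551.6 elsewhere, while Dab1 read 478.5 on its knockout array and 516.4 to 626.0 elsewhere. Background was taken from 27 bacterial control probe sets, which read at most 28.4 to 39.6 per array. Median signal was 86.5 to 92.3. Labels call every animal male, but Xist read 3367.6 to 4006.0 on 5 arrays and 124.9 on the Apoer2 knockout array, and the Y-linked gene Eif2s3y read 367.5 there and at most 7.7 elsewhere. All 8 cortical neuron markers measured were above background on every array. So were 7 of 8 markers of cerebellar granule cells, whose summed signals were 2248.3 to 3343.3 for the double, Reln and Dab1 knockouts and 9381.9 to 12321.0 for the others. These are cells of the cerebellum and not of the frontal cortex. In such bulk samples, fewer cells of a type, less RNA per cell and unequal shares of non-cortical tissue cannot be told apart.

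Promoter sequence is shown for Pttg1 and Cap1, the members with more than 1 probe set past the signal filter, each spanning at least 4-fold. The windows are the 250 bases before the start of transcription, from RefSeq on build GRCm38.p6, 5′ to 3′ on the gene's own strand. They lie at chr11:43425982-43426231 (minus strand) for Pttg1 and chr4:122886077-122886326 (minus strand) for Cap1. Capitals mark a match, on either strand, to the CCAAT box (letters CCAAT), the TATA box (letters TATAAA) or the GC box (letters GGGCGG), which do not overlap here.
Pttg1: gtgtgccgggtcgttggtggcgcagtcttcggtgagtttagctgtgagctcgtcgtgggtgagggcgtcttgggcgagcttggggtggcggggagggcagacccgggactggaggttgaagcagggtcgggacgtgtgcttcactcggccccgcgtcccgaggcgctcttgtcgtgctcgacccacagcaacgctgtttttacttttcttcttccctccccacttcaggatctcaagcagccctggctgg
Cap1: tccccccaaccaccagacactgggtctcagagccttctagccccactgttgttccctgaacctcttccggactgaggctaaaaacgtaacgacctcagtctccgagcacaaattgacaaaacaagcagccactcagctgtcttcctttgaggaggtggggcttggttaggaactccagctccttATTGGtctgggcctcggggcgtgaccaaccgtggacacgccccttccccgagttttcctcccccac
The Cap1 window held 1 CCAAT match, on the opposite strand, and the Pttg1 window held 0 matches. Of 32851 promoter windows of this length, 33.8% held the CCAAT letters, 12.4% the TATA box letters and 32.7% the GC box letters. The windows are the C57BL/6J reference and show no sequence of these animals.

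To compare genes, signals were put on the scale log2(signal + 28.1), and the range of a gene is its highest minus its lowest array on that scale. The median range over the 11499 kept genes was 0.43, or 1.35-fold. A range of at least 4-fold, called wide here, was found for 9 of the 10 members, and 0.548% of all kept genes had one. A widest gap of at least 2-fold between arrays placed in order was found for 7 members and 0.844% of kept genes. Both together held for 6 members and 0.470% of kept genes. Because the members were chosen for this quantity, nothing is read from these shares. Over the 4 arrays of the receptor cross alone, 9 members were still wide, and Cd33 spanned 2.86-fold. Those 9 wide ranges did not need the Dab1 or Reln knockout array.

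**Figure D1:**
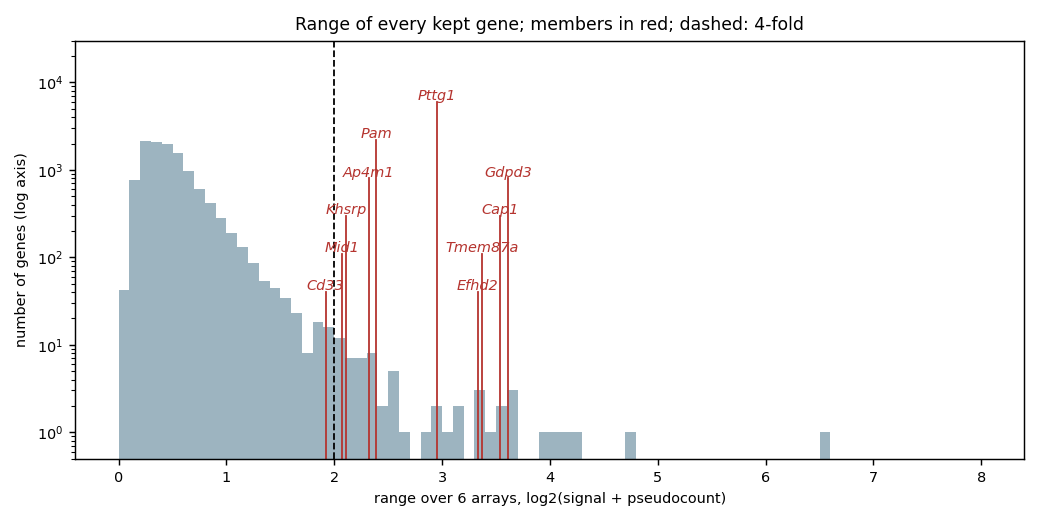
Histogram of the range over the 6 arrays (log2 of signal plus pseudocount) for the 11499 kept genes, on a log count axis, with the 10 members marked in red and the 4-fold line dashed. Cd33 (1.92) lies just below the line and Gdpd3 (3.61) has the widest range of the members.

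Among the genes of membrane traffic, Tmem87a was high on 4 arrays and at background on the arrays lacking Vldlr. Tmem87a encodes a membrane protein of the Golgi. It read 284.7 on WT, 11.6 on the Vldlr knockout, 268.5 on the Apoer2 knockout, 381.2 on the Dab1 knockout, 278.0 on the Reln knockout and 11.8 on the double knockout array. The low arrays were below their highest bacterial control (38.9 and 31.2), so the signal was at least 9.8-fold higher on the Dab1 than on the Vldlr knockout array. Only 1 probe set reads this gene.

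Pam encodes the enzyme that amidates peptide hormones in secretory granules, a step many neuropeptides need for activity. It read 167.4 on WT, 163.7 on the Vldlr knockout, 826.3 on the Apoer2 knockout, 219.4 on the Dab1 knockout, 232.3 on the Reln knockout and 975.2 on the double knockout array. The high arrays were those lacking Apoer2, and the double knockout array was 5.96-fold above the Vldlr knockout array. Markers of the pituitary, an organ rich in this enzyme, had a summed signal over 5 genes of 4386.8 on the Apoer2 knockout array, led by Gh at 3704.8, and 222.2 to 283.0 on the other 5. On the double knockout array, where Pam was highest, that sum was 237.4 and Gh read 13.1. The range of Pam, 2.39, was set by the double and Vldlr knockout arrays, so leaving out the Apoer2 knockout array could not change it. The part of pituitary tissue in the Pam values was not tested.

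Ap4m1 encodes the mu subunit of AP-4, an adaptor complex that sorts cargo leaving the trans-Golgi network. It read 197.6 on WT, 149.0 on the Vldlr knockout, 20.8 on the Apoer2 knockout, 54.2 on the Dab1 knockout, 100.7 on the Reln knockout and 216.0 on the double knockout array. The arrays formed a graded series, with the Apoer2 knockout array below its background of 28.4 and at least 7.61-fold below the double knockout array. Of the members, Ap4m1 lost its wide range without the Apoer2 knockout array, from 2.32 to 1.57. That array was the one with high pituitary markers and Y-linked signal. The part of pituitary tissue or sex in the Ap4m1 values was not tested. It has 1 probe set.

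Among the cytoskeletal genes, Efhd2 and Cap1 were above background on every array at all their probe sets. Efhd2 encodes swiprosin-1, a calcium-binding protein that associates with actin. Its main probe set (1437478_s_at) read 4062.9 on WT, 696.8 on the Vldlr knockout, 2587.6 on the Apoer2 knockout, 445.8 on the Dab1 knockout, 4735.2 on the Reln knockout and 525.6 on the double knockout array. WT, Apoer2 and Reln knockout arrays were high and the other 3 low, with a gap of 3.61-fold between the sides. A second, also bright probe set (1431339_a_at) read 2051.9, 1151.0, 1707.6, 1159.3, 3392.9 and 1223.5 in the same order of arrays. The same 3 arrays were low at both, but the second spanned 2.95-fold in signal against 10.6-fold at the first.

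Cap1 encodes a cyclase-associated protein that speeds the turnover of actin filaments. Its main probe set (1417461_at) read 983.6 on WT, 130.1 on the Vldlr knockout, 1668.8 on the Apoer2 knockout, 1807.6 on the Dab1 knockout, 992.6 on the Reln knockout and 1621.2 on the double knockout array. A second probe set (1417462_at) read 892.8, 42.7, 1648.7, 1606.2, 1012.4 and 1492.2. Both set the Vldlr knockout array far below the rest, with a highest-to-lowest ratio of 13.9 and 38.6, and Pearson's r between them over the 6 arrays was 1.0. As 1 array lies so far from the rest at both probe sets, r mainly reflects that array. At both, WT and Reln knockout were the next lowest. Without the Vldlr knockout array the range of Cap1 was 0.86 in place of 3.54, so its wide range rested on that array. The double knockout array, which also lacks Vldlr, was among the high ones.

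Mid1 encodes a microtubule-associated ubiquitin ligase, mutated in Opitz syndrome, and in C57BL/6 mice the gene spans the boundary of the pseudoautosomal region shared by X and Y. Its main probe set (1438239_at) read 469.0 on WT, 90.2 on the Vldlr knockout, 304.7 on the Apoer2 knockout, 324.3 on the Dab1 knockout, 182.7 on the Reln knockout and 112.4 on the double knockout array. The Vldlr and double knockout arrays were lowest, and no gap between arrays in order reached 2-fold, so Mid1 was graded rather than on or off. The Apoer2 knockout array, the one with Y-linked signal, lay between the others. The range of 2.07 was set by the WT and Vldlr knockout arrays, so leaving out the Apoer2 knockout array could not change it. The part of sex in the Mid1 values was not tested. Without WT the range was 1.57 and without the Vldlr knockout array 1.82, both under 4-fold. The other Mid1 probe sets were dim, at 23.5 to 53.5 and 2.6 to 24.0, and offer no second reading. With the mean of all its probe sets the range of Mid1 was 0.92.

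Pttg1 encodes securin, which holds separase inactive until sister chromatids part. Its brightest probe set (1438390_s_at) read 1788.9 on WT, 305.6 on the Vldlr knockout, 206.3 on the Apoer2 knockout, 1026.1 on the Dab1 knockout, 291.2 on the Reln knockout and 226.4 on the double knockout array. A second one (1424105_a_at) read 590.1, 26.0, 32.5, 271.9, 3.7 and 8.6. WT and the Dab1 knockout were high and the other 4 arrays low at both, and at the second the WT array was at least 18.4-fold above the Reln knockout array. The remaining, dim probe set read 94.6, 10.5, 5.3, 63.8, 78.4 and 72.8. There the Reln and double knockout arrays lay with WT and not with the low arrays, so the probe sets of Pttg1 disagreed on those genotypes. This probe set fell below the signal filter, with a mean of 54.2, but its 4 higher arrays were above background. Over the 5 markers of dividing cells measured, summed signals were 275.5 to 368.0 and were lowest on the Apoer2 knockout and WT arrays. Only 3 of these 5 were above background on every array, and Ccna2 alone read 156.1 to 190.9. The order of arrays in these sums differed from that of Pttg1. The part of dividing cells in the Pttg1 values was not tested.

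Khsrp encodes a KH-domain protein that binds AU-rich elements and speeds decay of the mRNAs that hold them. Its main probe set (1452690_at) read 33.6 on WT, 221.3 on the Vldlr knockout, 83.3 on the Apoer2 knockout, 90.0 on the Dab1 knockout, 237.8 on the Reln knockout and 196.6 on the double knockout array. WT was below background (35.2), the Apoer2 and Dab1 knockouts were intermediate and the other 3 were high. A second probe set read 60.5, 259.2, 118.3, 208.5, 264.2 and 205.8, and the remaining one 158.3, 262.0, 233.9, 281.0, 282.6 and 273.7. All 3 put WT lowest, but their highest-to-lowest signal ratios were 4.37 and 1.79 at these brighter ones and at least 6.76 at the main one. The annotation gives the main probe set and the second the same source sequence, so they may not read separate places. The Dab1 knockout array lay near the Apoer2 knockout at the main probe set and with the high arrays at the others. Without the WT array the range at the main probe set was 1.26 in place of 2.11. The names of both brighter ones end in _x_at, a class whose probes may also bind other transcripts.

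Gdpd3 encodes a lysophospholipase D that makes lysophosphatidic acid and takes part in forming N-acylethanolamines. It read 55.0 on WT, 467.7 on the Vldlr knockout, 232.7 on the Apoer2 knockout, 43.4 on the Dab1 knockout, 12.4 on the Reln knockout and 24.5 on the double knockout array. Only the single receptor knockouts were clearly high. The Reln and double knockout arrays were below their background of 32.1 and 31.2, and the Vldlr knockout was at least 14.6-fold above the Reln knockout array. Gdpd3 was the only member for which the double, Reln and Dab1 knockout arrays did not overlap the other 3, and 17.7% of kept genes had no overlap. That separation rested on WT at 55.0 against the Dab1 knockout at 43.4, near their backgrounds of 35.2 and 39.6. At the widest gap WT lay on the low side with the double, Reln and Dab1 knockout arrays. The mean log2 level of Gdpd3 was 5.74 on the double, Reln and Dab1 knockout arrays and 7.79 on the others. The summed granule cell markers were also lower on those arrays, but array by array the order differed: WT had a sum of 12076.2 with Gdpd3 at 55.0, the Vldlr knockout 9381.9 with 467.7, and the Dab1 knockout 3343.3 with 43.4. Their part in the Gdpd3 values was not tested.

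Cd33 encodes a sialic acid receptor of myeloid cells, in the brain of microglia. It read 15.8 on WT, 97.6 on the Vldlr knockout, 92.0 on the Apoer2 knockout, 136.0 on the Dab1 knockout, 138.4 on the Reln knockout and 96.9 on the double knockout array. WT alone was low, below its background, and the Reln knockout was at least 3.93-fold above it. Without the WT array the other 5 spanned 1.39-fold. The 8 microglia markers measured had a summed signal of 3937.5 on WT and 3284.4 to 3997.2 over all arrays, so WT was not low in this sum. The part of microglia in the Cd33 values was not tested.

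**Figure D2:**
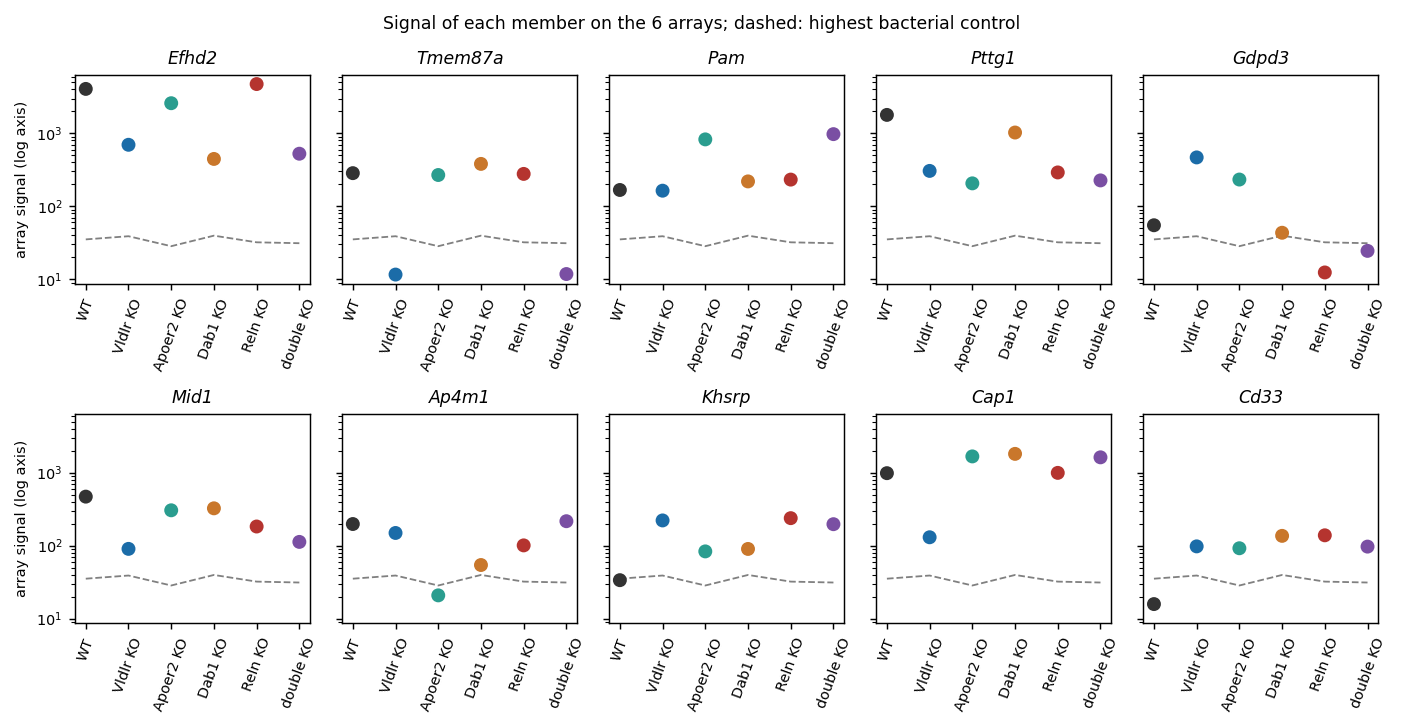
Signal on each of the 6 arrays (log axis) for the 10 members at their main probe set, 1 point per array, with the highest bacterial control of each array as a dashed line. Tmem87a is at background on the Vldlr and double knockout arrays, Cap1 is low only on the Vldlr knockout array, and Cd33 is below background only on WT.

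The probe sets of a gene were then compared, since a change in transcript amount is read by every probe set placed on that transcript. For 4 members, Efhd2, Pttg1, Khsrp and Cap1, another probe set passed the signal filter, and for 6 there was only 1. In each of the 4, each knockout array kept its own side of WT across the filter-passing probe sets, though that side could differ between arrays. For Pttg1 and Khsrp WT was at 1 end of the range at all of these probe sets. For Cap1 the Reln knockout differed from WT by only 0.01 and 0.18. Every filter-passing probe set was wide only for Cap1 and Pttg1: ranges on the log2 scale were 3.54 and 4.57 for Cap1 and 2.95 and 4.28 for Pttg1. They were 3.33 and 1.54 for Efhd2, and 2.11, 1.72 and 0.74 for Khsrp. Among the other genes that were wide with a 2-fold gap, 20 had another filter-passing probe set. In 10 of those 20 another probe set was wide too, and in 4 of them all others spanned less than 2-fold. Among the members that met both criteria, another probe set was wide in 2 of 3.

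**Figure D3:**
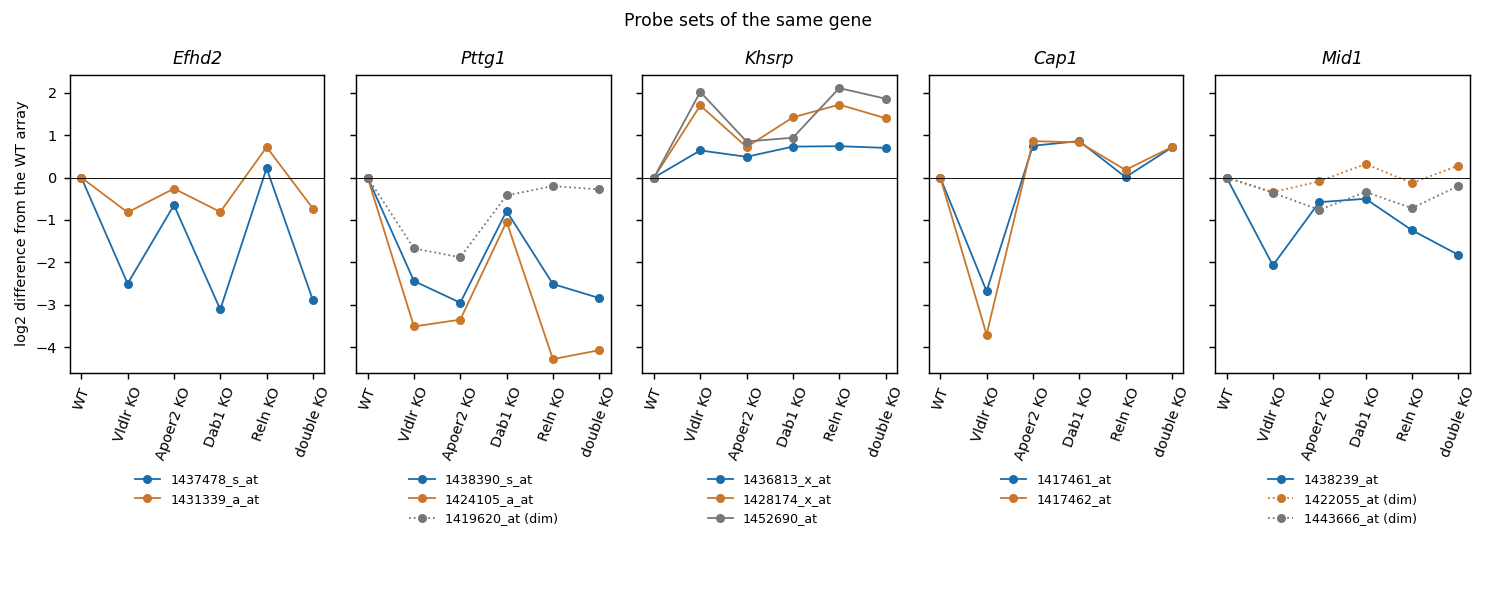
Log2 difference of each array from WT for every probe set of the 5 members with more than 1, on the scale log2(signal + 28.1). Solid lines passed the signal filter and dotted lines did not. The lines of Cap1 run together except on the Vldlr knockout array, at -2.68 and -3.70. Those of Efhd2 and Khsrp share direction but span unequal ranges, and the dim Pttg1 probe set departs on the Reln and double knockout arrays.

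The receptor cross allows each loss to be read with and without the other receptor, with 1 array each and no test. Efhd2, Tmem87a and Mid1 were at least 2-fold lower on both arrays that lack Vldlr: the differences with and without Apoer2 were -2.50 and -2.24 for Efhd2, -2.98 and -2.89 for Tmem87a, and -2.07 and -1.24 for Mid1. Khsrp was at least 2-fold higher in both (2.02 and 1.01). For pairs with an array at background the size of the log2 difference depends on the pseudocount, and only a bound on the signal ratio is measured. Tmem87a was at least 7.32-fold lower with Apoer2 and at least 8.61-fold lower without it, and Khsrp was at least 6.29-fold higher with Apoer2, while its ratio without Apoer2, with both arrays above background, was 2.36. Of all kept genes, 0.0696% were lower in this way and 0.0522% higher, and Vldlr itself was among the lower ones. Pam was at least 2-fold higher with loss of Apoer2 in both settings (2.13 and 2.39). The 2.13 used the Apoer2 knockout array, the one with high pituitary markers and Y-linked signal. This pattern held for 0.0261% of kept genes, the others being the activity-induced genes Arc and Fos. So at their main probe sets 5 of the 10 members lay at least 2-fold to the same side on both arrays lacking a receptor. Crossing genotype does not describe those 5 probe sets within this cross. These are the values the members were chosen on, with 1 array each, and nothing more is read from the count. For Efhd2 and Khsrp the count depends on the probe set. At the second Efhd2 probe set the Vldlr knockout differed from WT by -0.82. At the brighter Khsrp ones the double knockout read 205.8 and 273.7, against 118.3 and 233.9 on the Apoer2 knockout, both under 2-fold. Efhd2 was low on the Dab1 knockout array too, whose animal had both receptors. Tmem87a and Pam read with WT on the Dab1 and Reln knockout arrays.

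The remaining 5 members did not reach 2-fold in the same direction on both backgrounds for either receptor. Cap1 differed by -2.68 with loss of Vldlr when Apoer2 was present and by -0.04 when it was absent. With loss of Apoer2 it differed by 0.75 when Vldlr was present and by 3.38 when it was absent, the same direction, with the Vldlr knockout array as the low array of the second pair. Pttg1 differed by -2.44 and 0.12 for loss of Vldlr with and without Apoer2. For loss of Apoer2 it differed by -2.95 and -0.39 with and without Vldlr, again in 1 direction. Ap4m1 differed by -2.21 with loss of Apoer2 when Vldlr was present, at least 6.96-fold in signal, and by 0.46 when it was absent. With loss of Vldlr it differed by -0.35 with Apoer2 and by 2.32 without it, the latter at least 7.61-fold. Cd33 differed by 1.52 and 0.06 with loss of Vldlr and by 1.45 and -0.01 with loss of Apoer2. The pairs with WT, where Cd33 was at background, were at least 2.77-fold and at least 2.61-fold apart in signal. Gdpd3 differed by 2.58 with loss of Vldlr when Apoer2 was present and by -2.31 when it was absent, and opposite differences of at least 2-fold were found for 0.0435% of kept genes. In signal, the Vldlr knockout array was 8.5-fold above WT, and the Apoer2 knockout array was at least 7.46-fold above the double knockout array, which was at background. With loss of Apoer2, Gdpd3 differed by 1.65 with Vldlr and by -3.24 without it. The pairs share the arrays of the cross, and the difference between backgrounds was not tested.

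**Figure D4:**
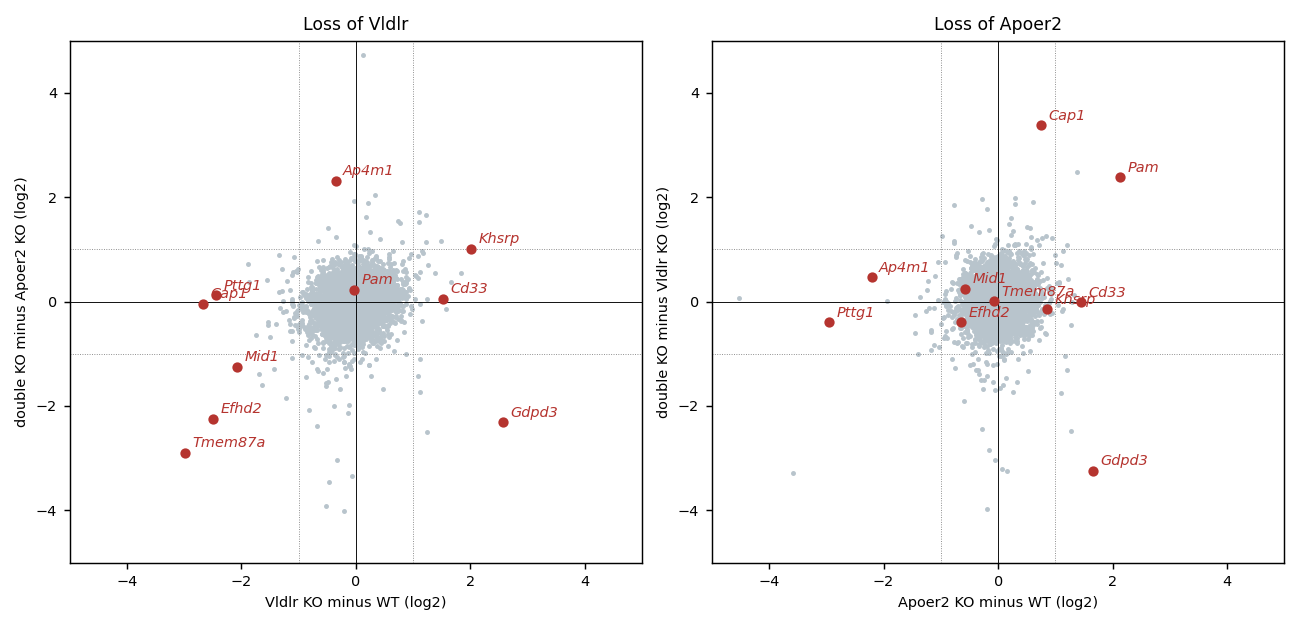
Log2 difference with loss of Vldlr (left) or Apoer2 (right), with the other receptor present on the x axis and absent on the y axis, for all kept genes (grey) and the members (red). Dotted lines mark 2-fold and 1 gene lies outside the axes. Tmem87a, Efhd2 and Mid1 lie at the lower left for Vldlr, Pam at the upper right for Apoer2, and Gdpd3 at the lower right in both.

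Against WT, which all 5 differences share, 5 members were at least 2-fold lower on the Vldlr knockout array (0.478% of kept genes) and 3 higher (0.243%). On the Apoer2 knockout array 2 were lower (0.191%) and 3 higher (0.200%). On the Dab1 knockout array 2 were lower (0.748%) and 1 higher (0.287%). On the Reln knockout array 3 were lower (1.33%) and 2 higher (1.16%), and on the double knockout array 4 lower (0.591%) and 3 higher (0.339%). Pttg1 and Cd33 recur on the largest number of these arrays. For both, and for Khsrp and Mid1, WT itself stood at an end of the range. At its main probe set, no member had the Reln knockout array alone on 1 side of its widest gap.

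Where the members stood among other far-apart genes was described by which arrays lay on each side of the widest gap. Of 54 genes that were wide with a 2-fold gap, 36 had a single array set apart, 17 of them the Reln knockout. Another 7 had 2 arrays against 4, and 11 had 3 against 3. The 6 members in that set were distributed otherwise: 1 had a single array apart (Cap1), 4 had 2 against 4 (Tmem87a, Pam, Pttg1, Gdpd3) and 1 had 3 against 3 (Efhd2). Of the 11 genes split 3 against 3, 8 had the Dab1, Reln and double knockouts as their low arrays, and no member had that side. The 5 members with more than 1 array on each side each had low and high arrays that no other gene in the set had in the same direction. Lrp8 had the division of Pam turned round, low where Pam was high. The members were picked for crossing genotype, which fixes part of this contrast.

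Genes whose pattern came closest to each member were named by the smallest root mean square difference between centred log2 profiles over the 6 arrays, with Pearson's r as a description. Mid1 was closest to Vldlr itself (0.22, r = 0.97) and to Sc5d, an enzyme of cholesterol synthesis (0.27, r = 0.93). Sc5d read 781.5 on WT, 230.4 on the Vldlr knockout, 689.1 on the Apoer2 knockout, 640.6 on the Dab1 knockout, 235.9 on the Reln knockout and 209.3 on the double knockout array. Cd33 was closest to Foxh1 (0.19, r = 0.96), a partner of Smad proteins, and to the splicing factor gene Sf3b3 (0.26, r = 0.93). Both were lowest on WT, where Foxh1 read 26.7 and Sf3b3 315.7, against 91.7 to 182.0 and 709.7 to 1004.2 elsewhere. Khsrp was closest to Gm35161 (0.25, r = 0.95) and the ribosomal protein gene Rps27 (0.32, r = 0.94).

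The other members had no gene as close. The nearest to Ap4m1 were Pstpip2 (0.47) and the interleukin-6 receptor gene Il6ra (0.50), and to Pam the mitochondrial calcium gene Micu3 (0.63) and Cd74 (0.68). Zswim3 (0.64) and the potassium channel gene Kcnj11 (0.72) came nearest to Cap1, and the microglial gene Fcrls (0.68) and Appbp2os (0.72) to Pttg1. For Gdpd3 they were the corepressor gene Rcor2 (0.72) and the growth factor gene Gdf10 (0.80). Tmem87a was nearest to Zfp991 (0.85) and again Vldlr (0.89), and Efhd2 to the matrix protein gene Mgp (0.82) and Serinc2 (0.87). With 6 arrays and 11499 genes, high values of r arise easily. Among the members themselves, the highest r was 0.87, between Tmem87a and Mid1, both lowest on the Vldlr and double knockout arrays.

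A stretch of chromosome inherited from another strain would hold the neighbours of a member too. Genes in such a stretch need not differ in signal, so its part was not tested. As a description, the 5 kept genes on each side of each member in the RefSeq order were read. This gave 97 neighbours, fewer than 10 only for Mid1 (7), which lies at the end of its chromosome. Their median range was 0.43, the same as the 0.43 of all kept genes. Wide ranges were found for 2 of the 97 neighbours, against 0.548% of kept genes, and ranges of at least 2-fold for 7, against 5.72%. For Tmem87a, Gdpd3, Ap4m1, Khsrp and Cap1 no neighbour reached 2-fold. Near Pttg1 lay Gabra6, a granule cell receptor subunit, which read 1797.0, 1247.6 and 2014.9 on the WT, Vldlr and Apoer2 knockout arrays and 185.7, 251.5 and 106.6 for the Dab1, Reln and double knockouts. That is another order of arrays than that of Pttg1 (r = 0.15). Next to Mid1 lay G530011O06Rik, at 269.4 on the Dab1 knockout, 6.9 on the Reln knockout and 37.6 to 91.4 on the others (r = 0.25). Erdr1, the gene after it, had a range of 1.59 (r = 0.32 with Mid1). It too was highest on the Dab1 knockout array (183.5) and lowest on the Reln knockout array (42.3). Cap1 and Efhd2 share their chromosome with Dab1 and Lrp8, with 95 and 297 kept genes between them and Lrp8. Ap4m1 shares its own with Reln, 597 kept genes away.

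**Figure D5:**
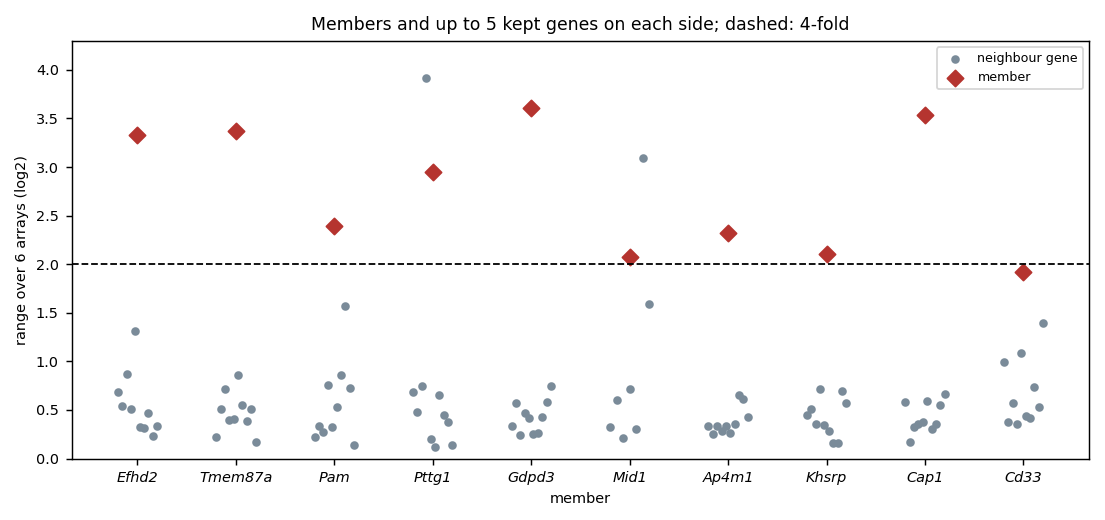
Range over the 6 arrays (log2) of each member (red diamonds) and of up to 5 kept genes on each side of it (grey points), with the 4-fold line dashed. The neighbours above the line are Gabra6 near Pttg1 and G530011O06Rik near Mid1.

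Genes that work with or resemble each member were read from 10 lists, 1 per member, to see whether related functions were also far apart between arrays. Of 101 listed genes 81 were kept. None was wide (0.548% of kept genes were), 2 of 81 spanned at least 2-fold against 5.72%, and the median range was 0.39 against 0.43. In limma's comparison of the Dab1, Reln and double knockouts with the other 3 arrays, 0 of the 81 passed an adjusted p of 0.05 in either direction, as 0.130% of kept genes did. At an unadjusted p of 0.05 there were 14 of 81, against 11.0% of kept genes. The median log2 difference was 0.03 over the 81 and 0.008 over all kept genes. That test treats arrays of different genotypes as replicates, so its p-values measure only the spread between these arrays.

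By role, the AP-4 subunits other than Ap4m1 were even: Ap4b1 read 164.3 to 223.4, Ap4e1 92.3 to 148.5 and Ap4s1 926.9 to 1111.9, and the widest of the 9 kept genes of that list was Ap4e1 with a range of 0.55. In the list of Tmem87a relatives (5 kept genes) Wls, which carries Wnt proteins, was widest at 0.77, and the paralogue Tmem87b read 320.2 to 463.3. Among 9 kept genes of peptide processing, Chga, a secretory granule protein, was widest (1.21) and read 2211.5 on the Reln knockout array against 942.6 to 1179.9 elsewhere. Cpe, which trims peptides ahead of amidation, read 7130.1 to 8599.8. Its highest arrays were the double and Apoer2 knockouts, as for Pam, but its range was 0.27.

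In the cytoskeletal lists the paralogue Efhd1 was widest of 6 calcium-binding genes, at 661.4 on WT, 291.8 on the Vldlr knockout, 462.9 on the Apoer2 knockout, 264.6 on the Dab1 knockout, 361.6 on the Reln knockout and 442.3 on the double knockout array, a range of 1.24. Like Efhd2, Efhd1 was low on the Vldlr and Dab1 knockout arrays, but not on the double knockout. Dstn, which severs actin filaments, was widest of the 12 actin turnover genes (0.92), and Cap2 read 1198.1 to 1630.7. Trim67 (0.84) was widest of the 9 genes in the Mid1 list, where Mid2 read 221.6 to 276.5 and Ppp2ca, the phosphatase subunit that Mid1 acts on, 4749.3 to 5211.2.

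Of the separase and cohesin list, 8 of 11 genes were kept and Mad2l1, of the spindle checkpoint, was widest at 0.62. Espl1, the separase that securin holds, was below the filter at 33.1 to 71.2. Zfp36, which directs mRNA decay, was widest of 12 genes in the Khsrp list (0.99), and the KH-domain relatives Fubp1 and Fubp3 read 322.1 to 427.0 and 154.5 to 210.3. In the Gdpd3 list Gdpd5 was widest of 6 (0.91). In the Siglec list 5 of 11 genes were kept, with Cd22 widest (0.79), and Tyrobp, the adaptor of many myeloid receptors, read 246.3 to 316.5.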

How the data were processed

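Per the submitters' processing notes, the authors used MAS5 and Affymetrix Expression Console, with no version stated, and the deposited values are linear signal intensities. Of 45101 probe sets, 34958 name 1 gene, 932 several and 9211 are unnamed here; 34754 were matched by gene ID to RefSeq GRCm38.p6, used for names and gene order. A gene was read at its brightest probe set by mean signal, those ending in _x_at last, and was kept at a mean of 89.0, the median over probe sets. Signals were analysed as log2(signal + 28.1), 28.1 being the 25th percentile, so folds of dim genes are understated. A fold given as at least was set against the highest bacterial control of the dim array; log2 differences and ranges keep the pseudocount, and their size depends on it where an array is at background. The class comparison used limma (3.58.1, under R 4.3.3), a trended prior and Benjamini-Hochberg adjustment, and on simulated data it was tested with 200 changed genes among 11499, of which it recovered 97.0% at 4-fold and 79.0% at 2-fold. The members and lists were chosen with earlier results of these data known. Named genes are the members, the 2 closest genes to each, the widest gene of each list and neighbours with a 4-fold range; the target and sex genes check the labels. Chosen after their values were seen were Arc, Fos, the paralogues and partners Tmem87b, Cap2, Mid2, Ppp2ca, Ap4b1, Ap4s1, Cpe, Espl1, Fubp1, Fubp3 and Tyrobp, the neighbour Erdr1, and Gh.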

Additional observations from a re-analysis of the deposited data

Results flagged for a closer look

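Gdpd3 differed in opposite directions with loss of Vldlr in the presence and absence of Apoer2. The log2 difference was 2.58 with Apoer2 present (Vldlr knockout minus WT) and -2.31 with Apoer2 absent (double minus Apoer2 knockout). The double knockout array was at background, at 24.5 against a highest bacterial control of 31.2, so the second size depends on the pseudocount, and in signal the Apoer2 knockout array was at least 7.46-fold higher. Each value compares 1 array with 1 array, and the difference between the backgrounds was not tested.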

How the results depend on the processing

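The count of wide genes, 63 as analysed, was 120 with a pseudocount of 1, 26 with the median as pseudocount, 25 with a stricter filter and 27 over the receptor cross alone, a setting chosen after seeing the data. Leaving out 1 array gave 35 to 57, the lowest without the Reln knockout. Genes with a 2-fold gap, 97 as analysed, were 147, 49 and 39 under the first 3 of these settings and 186 with no filter. Of the members 4 were wide with the stricter filter, which only kept the brighter ones, and 7 to 9 when 1 array was left out. Genes past the class test were 15, and 1 to 22 leaving out 1 array, with 1 without WT. Under the alternatives run for the listed genes, which did not include the receptor cross alone, 0 were wide or passed. Member ranges were lower with the mean of probe sets for Efhd2 (2.43), Mid1 (0.92) and Khsrp (1.52), and with the median as pseudocount Mid1 spanned 1.64, Ap4m1 1.47, Khsrp 1.41 and Cd33 1.11. Without WT Mid1 spanned 1.57 and Khsrp 1.26. No paired analysis was possible because each genotype has 1 array. Dim probe sets are bounds more than levels.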
